A study of Mus musculus with 6 samples.

Results

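ABC transporter genes were examined as a family in mouse cortical neurons that received N40K or a control vector. The members were taken by name, as all genes of the table whose symbol is Abc followed by a subfamily letter from a to g and a digit, and 41 of the 15705 genes fit. The family was chosen by measured values as well as by name: the N40K and control scores of Abcc10, one of the largest increases of the table, were known when it was picked. Values of that comparison are therefore given as a description, Abcc10 is given without a test, and the membership of the other 40 genes rests on their symbols alone. All 41 had a score in all 6 libraries, so none was lost to the filter on low values. By the GENCODE M21 annotation the same name rule fits 50 protein-coding genes; Abca14, Abca15, Abca16, Abcb5, Abcb11, Abcc2, Abcc9, Abcg3 and Abcg8 were not analysed here.

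Both groups were primary cortical neurons from C57BL/6 embryos at embryonic day 18, which met lentivirus on day 7 in culture and were collected after 3 days. Control neurons received FCK1.3GW, a vector with EGFP, WPRE and a short CaMKII promoter, and N40K neurons received FCK1.3GW-N40K, in which that promoter drives N40K. The promoter is active mainly in excitatory neurons, so other cells of the culture may not make the protein. N40K comes from the N-terminal end of U1-70K, which belongs to the U1 snRNP, and the series concerns splicing dysfunction of this complex in Alzheimer's disease. Each group had 3 libraries of poly(A) RNA; whether they came from separate cultures is not stated, and the p-values then measure only how far these samples spread, which may be technical. Each gene has 1 score per library in the authors' table, called Sd and taken here to stand for splicing deficiency, so that a higher value means less complete splicing. The sources used here give neither its formula nor the read depth behind it. The score is not a level of RNA, and an excess of unspliced RNA and a loss of spliced RNA, or fewer cells of a type and less RNA per cell, cannot be told apart in it. All 8 neuron markers examined (Tubb3, Mtap2, Rbfox3, Snap25, Syp, Dlg4, Slc17a7 and Gad1) had scores, with means of 0.0194 or less in control neurons. In the limma fit across all genes 0 of these 8 passed, and 1, Mtap2, was higher at an unadjusted p under 0.05. Of the other cell types, 4 of 4 astrocyte, 2 of 3 oligodendrocyte, 2 of 3 microglia, 2 of 4 endothelial and 1 of 3 pericyte markers had a score. Among those, Csf1r, a receptor of microglia, rose 2.76-fold (limma adjusted p = 0.0131) and Mog, a myelin gene, fell to a ratio of 0.729 (adjusted p = 0.0195). The scored endothelial markers Flt1 and Pecam1 had ratios of 3.09 and 2.36 with all N40K scores above control, and neither passed (adjusted p = 0.0679 and 0.102); how far such cells share in the family's scores was not tested.

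ABC transporters are membrane proteins that use the energy of ATP to carry lipids, sterols, peptides, metals or drugs across membranes. Subfamily A moves mostly lipids, subfamily B holds the P-glycoproteins and mitochondrial transporters, and subfamily C holds the multidrug resistance proteins and the sulfonylurea receptors of potassium channels. Subfamily D works in peroxisomes and lysosomes and subfamily G exports sterols and drugs, while the proteins of subfamilies E and F span no membrane and act in translation. In brain the family is known for drug efflux at the blood-brain barrier, for cholesterol transport between glia and neurons, and for Abca7, a risk gene of Alzheimer's disease. Introns are recognised at their start by U1 snRNA, which pairs with the last 3 bases of the exon and the first 6 bases of the intron.

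N40K comes from a protein of the U1 snRNP, so the starts of introns are shown for some members. These are members in which an annotated transcript keeps an intron that the coding transcripts remove. GENCODE M21, on GRCm38, gives 40 such introns in 13 members. Sites are printed for the 5 genes with such an intron among Abcc10 and the 10 others that passed the threshold. Abcc1, Abcd4 and Abcf1 were picked by hand as members that did not pass. For each, the site with most bases in common with CAGGTAAGT, the sequence that pairs fully with U1, is shown. It is printed from the transcript sequences, with 12 exon and 18 intron bases on the strand of the gene. Where sites tied, the first along the gene is shown. Capitals mark the 9 bases that face U1.
Abcc10 intron 2: gcacgggttAAGGTGAGGggcttctggggt
Abcb8 intron 11: ctgtttggtCAGGTAAGTgagattgtccca
Abca5 intron 10: agaagctatAAGGTATGTttaacttttagt
Abcc8 intron 30: gaagtccgcATGGTAAGTggtagccccact
Abca3 intron 6: ctgccgctgGCGGTGAGAgtgacctccctg
Abcc1 intron 25: tactcactgCAGGTAAGTggctctttcttc
Abcd4 intron 7: ggctttctaTAGGTGAGTctagtggagaaa
Abcf1 intron 19: aaccatcggCTGGTAAGCtggccttgggaa
The Abcc10 site, at the start of an intron of 113 nt, shares 6 of the 9 bases with CAGGTAAGT, which is also the median of the 7621 introns of this kind in all genes of the table. A full match was found at intron 11 of Abcb8 and at intron 25 of Abcc1, that is at 2 of the 40 sites of the family (5%) and at 53 of all 7621 (0.695%). The family share thus rests on 2 sites, and Abcc1 did not pass. At least 7 of the 9 bases matched at 21 of the 40 sites (52.5%), against 34.9% of all. Among the members called higher, Abcc10 included, this held for 4 of 12 sites (33.3%). The shorter GTAAGT, which lies inside that sequence, opened 5 of the 40 introns (12.5%) and 9.22% of all. The score is 1 value per gene and does not say which intron the reads came from, so these letters are a description of the genes and not of the introns that changed.

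Control neurons already differed widely among the members. The mean control score ran from 0.00117 for Abcc4, an exporter of cyclic nucleotides and prostaglandins, to 0.129 for Abca7, a 110-fold span, with a median of 0.0133 for the family and 0.0133 for all genes. Abca2, a lipid transporter of lysosomes, followed Abca7 at 0.125 ± 0.00186 (SD, n = 3), and these neighbours in the order overlapped library by library. The lowest places were held by Abcc4 and by Abcg2, a drug exporter of the blood-brain barrier, at 0.00137 ± 0.000208. In 17 members the mean control score was under 0.01, the constant added before taking logarithms, and for these a log2 difference understates the change of the ratio.

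**Figure D1:**
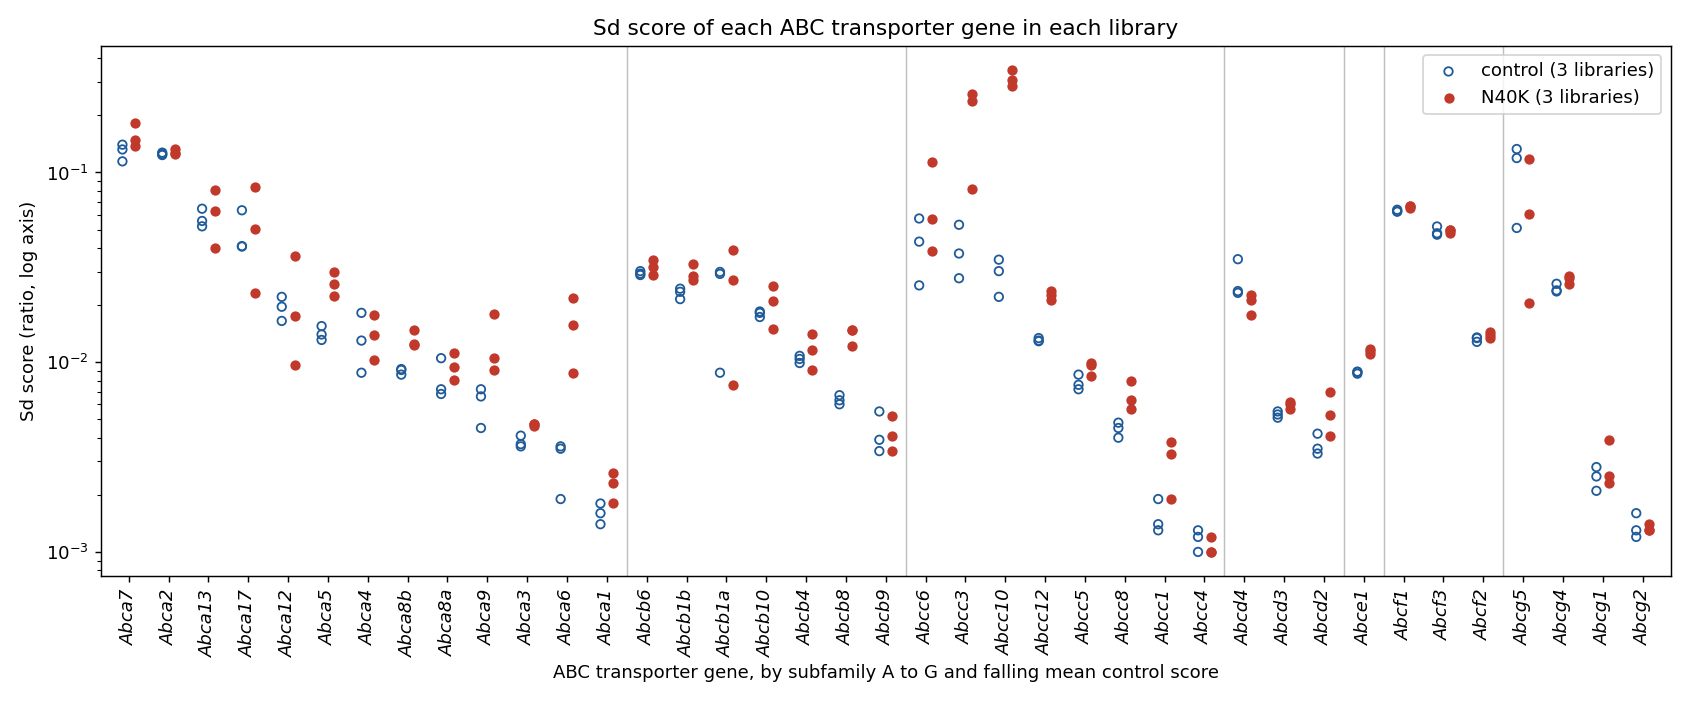
Sd score of 39 ABC transporter genes (log axis), with 3 control libraries as open circles and 3 N40K libraries as filled circles; genes stand by subfamily and by falling mean control score. Abcc10 has the widest gap between its groups, with no control score above 0.0347 and no N40K score below 0.2858.

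With N40K, 10 of the 40 members other than Abcc10 scored higher at an adjusted p under 0.05. The fit was limma on log2(score + 0.01), with Benjamini-Hochberg adjustment over all genes. In the family 0 scored lower, also at an unadjusted p under 0.05. Counts over all 41 members, here and below, include Abcc10, which makes the number called higher 11. Over the whole set of 15705 genes, 21.5% were called higher, 4.11% lower and 25.6% in either direction, and the family's 26.8%, or 25% without Abcc10, lies near that share. The 3 N40K scores lay above all 3 control scores in 15 members, or 36.6%, where 33.6% of all genes did so, and below them in 1 member, where 8.67% of all genes did. The ratio of mean scores was above 1 in 36 members (87.8%, against 67.1% of all genes) and had a median of 1.17, against 1.11 for all genes, and the median log2 difference was 0.09 against 0.06. A ratio of 2 or more was found for 5 members (12.2%), against 7.79% of all genes. The other 30 members had ratios from 0.656 to 2.05, and 14 of them lay between 0.9 and 1.1.

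The number called changed when single libraries were left out and with scaling. It was 5 without control 1, 4 without control 2, 4 without control 3 and 6 without N40K 2, settings in which 2028, 1613, 1630 and 2086 genes of the whole table were called higher in place of 3372. Without N40K 1 it was 12, without N40K 3 it was 8 and with arrayWeights 13, beside 3729, 2373 and 3835 of all genes. A fit with fewer libraries also has less power. The log2 difference of Abce1 stayed between 0.17 and 0.20 although its call ended in 4 of these fits. How much of the fall in calls comes from the smaller sample was not tested. Centring each library on its median, which moved the median difference of all genes by 0.13 (log2), gave 6 higher and 2 lower members. The family median was then -0.04 and that of all genes -0.07, and 1531 of the 15705 genes were called higher and 2883 lower. After quantile normalization 6 members were called higher and 0 lower, beside 2022 and 1883 of all genes. Centring on the median deviation, which shifts each library by the median deviation of its genes from their own means, gave 7 and 1. Of all genes, 2235 and 1518 were called in that setting.

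**Figure D2:**
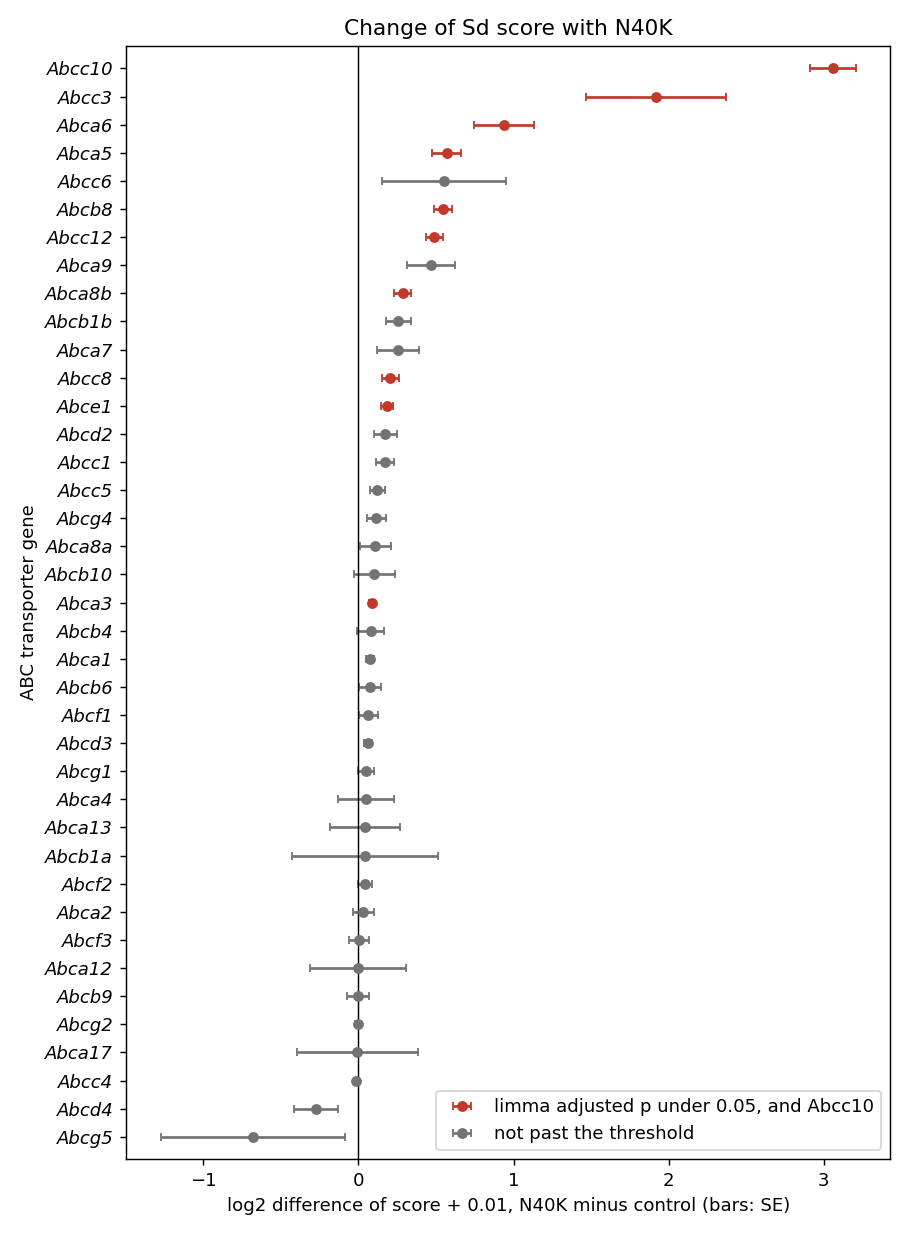
Log2 difference of score + 0.01 (N40K minus control, x axis) for 39 of the genes, with bars for the standard error of the limma fit; red points had an adjusted p under 0.05 or are Abcc10. Abcc10 at 3.06 and Abcc3 at 1.92 stand to the right of the other members, and Abcg5 has the widest bar.

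Subfamily C, of multidrug resistance proteins and sulfonylurea receptors, holds Abcc10, whose rise was known when the family was picked. Of its 7 scored members other than Abcc10, 3 were called higher, where 21.5% of all genes were. After Abcc10, Abcc3 had the largest difference on the log2(score + 0.01) scale, but Abca6 of subfamily A had a larger ratio (5.16 against 4.89). Abcc10, known as MRP7, exports lipophilic drugs such as taxanes. Its score was 0.0302, 0.0221 and 0.0347 in control libraries 1 to 3 and 0.2858, 0.3466 and 0.3061 in the N40K libraries. The groups were thus far apart, with the lowest N40K score several times the highest control score, and the ratio of means was 10.8 and the log2 difference 3.06. Leaving out any library kept that difference between 2.92 and 3.16. It depends on the added constant, and was 1.68 with 0.1, 3.41 with 0.001 and 3.45 with none.

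Abcc3, known as MRP3, exports organic anions and bile salts. It scored 0.0277, 0.053 and 0.0374 in control neurons and 0.0814, 0.2583 and 0.2382 with N40K, and rose 4.89-fold (limma adjusted p = 0.0296). N40K library 1 lay much closer to the controls than the other N40K libraries, and the call ended when any library other than N40K 1 was left out (highest adjusted p = 0.0903). Abcc12, or MRP9, moved less but with little spread. Its scores were 0.0129, 0.013 and 0.0134 in control neurons and 0.0212, 0.0236 and 0.0225 with N40K, a ratio of 1.71 (adjusted p = 0.00409) that passed in all 17 alternative settings. Of these 17, 1 left out the filter on low values, which removed no gene, and so repeats the main fit. Abcc8 encodes SUR1, the sulfonylurea receptor that regulates ATP-sensitive potassium channels in neurons and beta cells. It scored 0.0045, 0.0048 and 0.004 in control neurons and 0.0063, 0.0057 and 0.008 with N40K, a ratio of 1.5 (adjusted p = 0.0458). That call ended without any library other than N40K 2 (highest adjusted p = 0.138), under each of the 3 scalings, with 0.1 in place of 0.01 as the added constant, without the lowest 25% of genes and with eBayes without trend.

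The remaining members of subfamily C did not pass the test. Abcc6, linked to ATP release from liver and to ectopic calcification, scored 0.0572, 0.0254 and 0.0432 in control neurons and 0.0566, 0.0384 and 0.1133 with N40K. Its groups overlapped in spite of a ratio of 1.66, because N40K library 3 alone was high (adjusted p = 0.375). Abcc1, or MRP1, an exporter of glutathione conjugates, had a ratio of 1.96 at scores of 0.0038 or less, with N40K library 1 equal to control library 1 at 0.0019; its adjusted p of 0.0819 was 0.00887 without N40K 1 and 0.0394 with arrayWeights. Abcc5, an exporter of cyclic nucleotides, had a ratio of 1.2, and Abcc4 scored 0.001, 0.0012 and 0.0013 in control and 0.001, 0.0012 and 0.001 in N40K neurons.

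In subfamily A, whose proteins move lipids and sterols, all 13 members had a ratio above 1, against 67.1% of all genes. Of them, 4 were called higher, against 21.5% of all genes. Centring on the library median lowered every log2 difference by 0.13. Those of Abca1, Abca2, Abca3, Abca4, Abca8a, Abca12 and Abca13 then lay below 0, as that of Abca17 did without centring. Abca6 and Abca5 belong to a row of related genes that stand side by side in the genome, Abca8b, Abca8a, Abca9, Abca6 and Abca5. Abca6 scored 0.0035, 0.0036 and 0.0019 in control neurons and 0.0088, 0.0157 and 0.0219 with N40K, and rose 5.16-fold (adjusted p = 0.0197). Its log2 difference was 0.94 with the added constant and 2.33 without it. The N40K scores were spread more widely than those of most members but all lay above control, and the call ended without control 1, 2 or 3 or N40K 2 (highest adjusted p = 0.0715). Abca5, a lysosomal member, scored 0.0155, 0.014 and 0.0131 in control and 0.0257, 0.03 and 0.0224 in N40K neurons, a ratio of 1.83 (adjusted p = 0.011) that passed in all 17 alternative settings.

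Abca8b rose from 0.0091, 0.0092 and 0.0086 to 0.0124, 0.0123 and 0.0147, a ratio of 1.46 (adjusted p = 0.0171). Its call ended without control 1, 2 or 3 (highest adjusted p = 0.0654), after centring on the library median (0.0552) and after quantile normalization (0.0564). Abca9 scored 0.0045, 0.0066 and 0.0072 in control and 0.0091, 0.0105 and 0.018 in N40K neurons; the groups did not overlap, but the spread kept the adjusted p at 0.0796. Abca8a, the fifth gene of the row, ran from 0.0068 to 0.0105 in control and from 0.0081 to 0.0112 in N40K neurons, so its groups overlapped. In this row 3 of 5 genes were called higher and in 4 of 5 all N40K scores lay above control, where 21.5% and 33.6% of all genes did so; in the row of Abcb1a, Abcb1b and Abcb4 these counts were 0 of 3 and 1 of 3. The genes resemble each other in sequence, so their scores are uncertain where reads could be shared between copies.

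The subfamily A genes best known in brain had smaller ratios than Abca5, Abca6, Abca8b and Abca9, though not all were smaller than the 1.17 of Abca8a. Abca7 scored 0.1144, 0.1322 and 0.1401 in control and 0.1828, 0.1487 and 0.1373 in N40K neurons, with overlapping groups (adjusted p = 0.225). Abca2 scored 0.1272, 0.1235 and 0.1251 in control and 0.1334, 0.1263 and 0.1255 in N40K neurons (adjusted p = 0.782), a ratio of 1.03 and the second highest control score of the family. Abca1 hands cholesterol to apolipoproteins and is induced by liver X receptors. It scored 0.0018, 0.0016 and 0.0014 in control and 0.0018, 0.0023 and 0.0026 in N40K neurons, a ratio of 1.4 that did not pass (adjusted p = 0.098) but did without N40K 1 (0.0249). Abca3, a phospholipid transporter best known from lung surfactant, rose by a small and even amount, from 0.0041, 0.0036 and 0.0037 to 0.0046, 0.0047 and 0.0047 (ratio 1.23, adjusted p = 0.0328). The call of Abca3 ended without control 2 or 3 or N40K 2 or 3 (highest adjusted p = 0.108), with eBayes without trend and under each of the 3 scalings, and centring on the library median turned its log2 difference to -0.04. Abca4 of the retina, Abca12 of skin, Abca13 and Abca17 had ratios from 1.05 to 1.09 with overlapping groups, although the log2 difference of Abca17 was -0.01.

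Of the 8 members of subfamily B, 1 was called higher. This was Abcb8, a transporter of the inner mitochondrial membrane, which scored 0.0067, 0.006 and 0.0063 in control and 0.0147, 0.0122 and 0.0147 in N40K neurons. Each N40K score lay well above the highest control score, with a ratio of 2.19 (adjusted p = 0.00354), and the call held in all 17 alternative settings. Abcb10, also of the inner mitochondrial membrane, and Abcb6 had ratios of 1.13 and 1.07 with overlapping groups.

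Abcb1a and Abcb1b encode the rodent P-glycoproteins, drug efflux pumps of which Abcb1a marks brain endothelium. Abcb1a scored 0.0292, 0.0088 and 0.0299 in control and 0.0391, 0.0076 and 0.0271 in N40K neurons (adjusted p = 0.965). Library 2 was the low one in each group, and the spread was among the widest of the family, with a coefficient of variation of 53% in control and 64.6% in N40K neurons, where the family medians were 12.5% and 15.2%. Its log2 difference of 0.04 turned to -0.32 without control 2, to -0.27 without N40K 1 and to -0.07 without N40K 3. Abcb1b had tighter scores, 0.0215, 0.0235 and 0.0244 in control and 0.0272, 0.0331 and 0.0286 in N40K neurons; the groups did not overlap, and the adjusted p was 0.0674 (0.0355 with arrayWeights). These genes stand next to each other and to Abcb4, the phosphatidylcholine transporter of bile, and share much of their sequence, so reads could be split between them. Abcb4 and Abcb9, a lysosomal peptide transporter, had ratios of 1.12 and 0.992.

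In subfamily D, of peroxisomal and lysosomal transporters, Abcd2 imports long fatty acids into peroxisomes. It scored 0.0033, 0.0035 and 0.0042 in control and 0.0041, 0.0053 and 0.007 in N40K neurons, with 1 N40K score inside the control range (adjusted p = 0.13, and 0.0397 without that library, N40K 1). Abcd3, or PMP70, had a ratio of 1.13. Abcd4, which works in the release of cobalamin from lysosomes, was the only member whose N40K scores all lay below control: 0.0349, 0.0232 and 0.0237 in control and 0.0213, 0.0177 and 0.0227 in N40K neurons. The gap between the groups was small beside the spread of the controls, where library 1 stood apart, and the adjusted p was 0.214.

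The members that act in translation had scores with little spread. Abce1, which splits ribosomes for recycling, scored 0.0087, 0.0089 and 0.0089 in control and 0.011, 0.0114 and 0.0118 in N40K neurons, a ratio of 1.29 (adjusted p = 0.0191) with a coefficient of variation of 1.31% in control. That call ended without control 1, 2 or 3 or N40K 2 (highest adjusted p = 0.07) and under each of the 3 scalings. Abcf1, which binds the initiation factor that brings the first tRNA, scored 0.0636, 0.0623 and 0.0622 in control and 0.0663, 0.0666 and 0.0649 in N40K neurons. Its groups did not overlap, but the ratio was 1.05 and the adjusted p 0.508. Abcf2 and Abcf3 had ratios of 1.05 and 1, and in subfamily F 0 of 3 members passed, also at an unadjusted p under 0.05.

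In subfamily G, of sterol and drug exporters, none of the 4 scored members passed (limma), and none did at an unadjusted p under 0.05. Abcg4, a sterol exporter of neurons and astrocytes, came closest, at 0.0239, 0.0236 and 0.0259 in control and 0.0277, 0.0259 and 0.0285 in N40K neurons, where 1 N40K score equalled the highest control score (adjusted p = 0.236). Abcg1, which passes cholesterol to lipoproteins, scored 0.0025, 0.0021 and 0.0028 in control and 0.0025, 0.0023 and 0.0039 in N40K neurons (adjusted p = 0.555). Abcg2 scored 0.0013, 0.0012 and 0.0016 in control and 0.0013, 0.0013 and 0.0014 in N40K neurons (adjusted p = 0.885). Abcg5, an intestinal and hepatic plant-sterol exporter, had the lowest ratio of the family, 0.656, but its scores of 0.1191, 0.1329 and 0.051 in control and 0.1182, 0.0603 and 0.0204 in N40K neurons overlapped (adjusted p = 0.461). Library 3 was the lowest in each group for Abcg5, and its coefficient of variation was 43.4% in control and 74.2% in N40K neurons. Its log2 difference of -0.68 was -0.13 without N40K 3 and -1.17 without N40K 1.

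**Figure D3:**
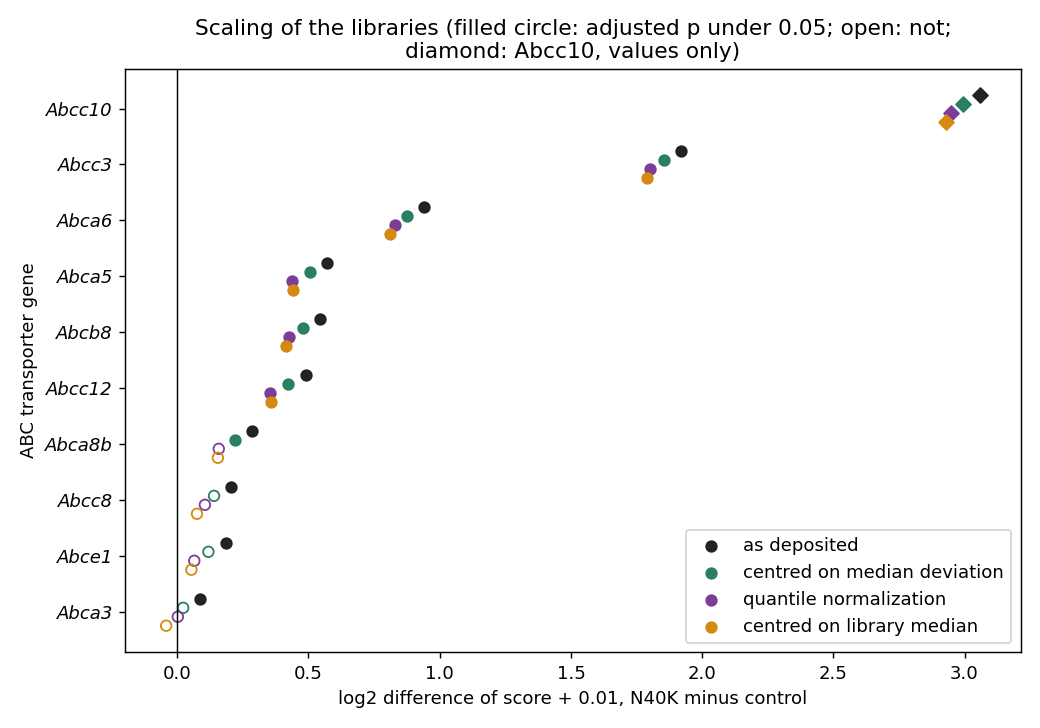
Log2 difference of score + 0.01 (x axis) of 10 members under 4 scalings of the libraries; filled circles had an adjusted p under 0.05, open circles did not, and diamonds show Abcc10 without a test. Abcc3, Abca6, Abca5, Abcb8 and Abcc12 stay filled under every scaling shown, while Abcc8, Abce1 and Abca3 are filled only with the scores as deposited.

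ABC proteins of other symbol and genes that work with the family were examined by lists. Cftr, the chloride channel of the ABCC group, rose from 0.00857 ± 0.000764 to 0.0172 ± 0.0001 (ratio 2.01, limma adjusted p = 0.00277), while the antigen peptide transporters Tap1 and Tap2 had ratios of 0.991 and 1.09 and did not pass. Of 36 partner genes 31 had a score; 6 rose, 1 fell and 24 did not pass, with a median log2 difference of 0.06 against 0.06 for all genes. These shares, 19.4% and 3.23% of the scored partners, lie near or below the 21.5% and 4.11% of all genes. Members that rose included Etf1, a release factor (ratio 2.09, adjusted p = 0.00158), Hbs1l, a ribosome rescue GTPase (1.74, 0.00534), and Gspt1, the GTPase partner of the release factor (1.36, 0.00709), while Gcn1l1, a regulator of translation, did not pass (1.09, 0.397). Srebf2, a regulator of cholesterol synthesis (1.47, 0.00601), and Npc1, a lysosomal cholesterol exporter (1.36, 0.0408), rose as well. Npc2, which works with Npc1, had a ratio of 0.707 with all N40K scores below control and did not pass (0.084), nor did Srebf1 (1.01), Mylip (1.00) and Lrp1 (1.07). Nr1i3, a xenobiotic receptor that induces drug transporters, fell to a ratio of 0.527 (0.0108). The liver X receptor genes Nr1h2 and Nr1h3, which control Abca1 and Abcg1, had ratios of 1.14 and 0.85 and did not pass, and Apoe, which takes up the exported cholesterol, had a ratio of 0.932.

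The genes that flank Abcc10 were measured as well. By annotation the end of Abcc10 overlaps the end of Dlk2, a gene of the opposite strand related to the Notch ligands. Dlk2 scored 0.0297, 0.0227 and 0.0255 in control and 0.0526, 0.0382 and 0.0418 in N40K neurons, a rise of 1.7-fold (limma adjusted p = 0.0227), whereas Tjap1, beyond Dlk2, and Zfp318, on the other side of Abcc10, had ratios of 0.985 and 1.17 and did not pass. The sources used here do not say whether the authors' counting used strand, and the part of shared reads in these scores was not tested. Of the 140 other genes whose ratio was above 4, those with the most similar profile to Abcc10 over the 6 libraries were Skap1, Xpo4, Gm11847, Rspo3 and Siah2, with Pearson r from 0.996 to 0.999 on log2(score + 0.01). Within the family Abcc12 was closest (r = 0.994), followed by Abce1 (0.981) and Abcb8 (0.97). The libraries share their groups, so these values describe likeness and carry no test. They rest on the scores by which Abcc10 was picked, and any gene with a large rise and little spread within groups has a high r.

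Members were long genes with many introns. Their median length was 62.7 kb and their median intron number 27, against 25.5 kb and 8 for the 14911 genes of the table that the annotation could be matched to. In the whole table longer genes had higher ratios (Spearman rho = 0.39 across genes), but across the 41 members the rho was 0.07, and the members called higher had a median length of 58.3 kb against 64.1 kb for the others. Genes are not independent replicates and share the same libraries, so these are descriptions. Overlap with another annotated gene was found for 22 members (53.7%, against 59.2% of all genes), 5 of them among the 11 called higher, Abcc10 included. A transcript of the annotated type retained intron existed for 27 members (65.9%, against 54.4%), among them 6 of the 11 called higher and 21 of the 30 others. This counts the type alone, whereas the 13 members with printed or counted sites also needed such a transcript to span a whole intron of a coding transcript.

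**Figure D4:**
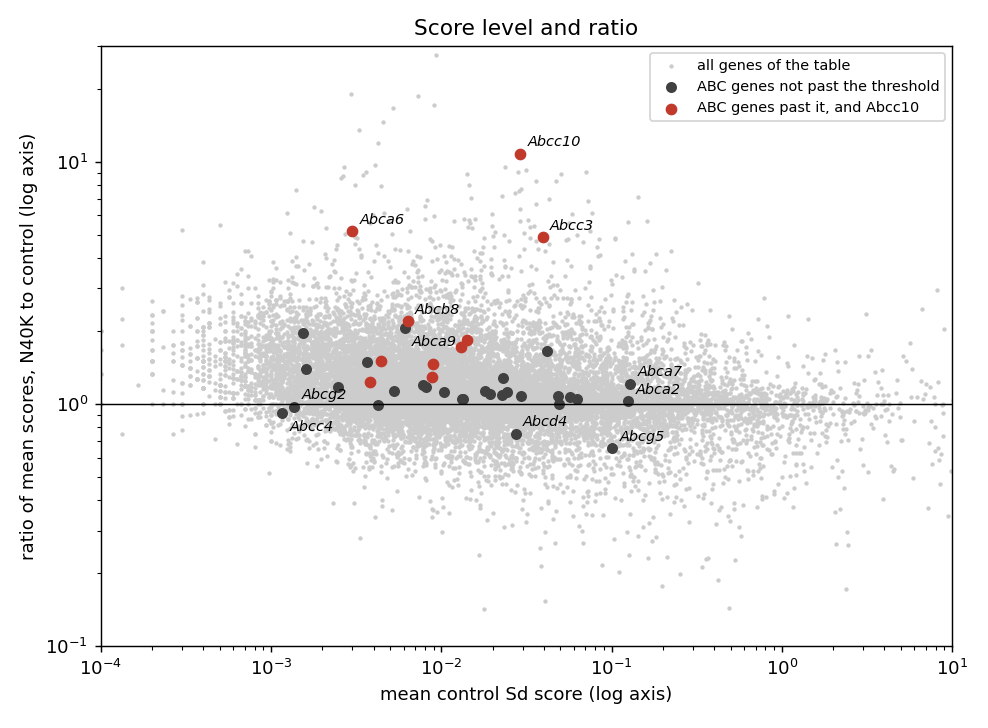
Mean control score (x, log axis) against the ratio of mean scores, N40K to control (y, log axis), for all genes in grey and 39 ABC genes in black or red; 68 genes lie outside the axes. Abcc10 lies highest of the family, at a control mean of 0.029 and a ratio of 10.8, and the other members spread over the range of all genes.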

How the data were processed

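RNA from 3 control and 3 N40K libraries was sequenced as stranded poly(A) libraries with paired reads of 100 nt, per the labels' protocols. Build mm9 and the tools bedtools 2.16.1, BWA, STAR and CASAVA appear in the submitters' processing notes, where neither their roles nor their order are stated. The deposited table of the authors holds scores that were treated as a linear ratio, all above 0, with a minimum of 0.0001. How the score was computed, filtered and annotated, and whether by strand, is not given in the sources used here. Depth is unknown, so no interval that needs it is printed.

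Columns were assigned by name, with 0 left unused. In R 4.3.3, limma 3.58.1 (lmFit, then eBayes with trend, 2-sided) was fitted to log2(score + 0.01) of all 15705 genes, with Benjamini-Hochberg adjustment and a threshold of 0.05; "rose" and "fell" mean past that threshold without scaling between libraries. A filter, a score above 0 in at least 3 libraries, removed no gene. The members, the gene lists and the alternatives were chosen with earlier results of these data known. Members named with values were those past the threshold, the 4 largest differences that missed it, the 2 highest and 2 lowest control scores and a list of genes known from brain; Abcc9 of that list was not analysed here, some genes that count in the totals are not reported here by name, and the other members that are named were picked after their values were seen. Gene structure and transcript sequences came from GENCODE M21 (GRCm38), matched by Ensembl identifier for 14911 genes (94.9%) and all 41 members; gene order came from RefSeq on GRCm38.p6. No coordinates are printed, since the build differs from mm9. On simulated data, with 200 of 15705 genes changed, the fit made 3 false calls. For true log2 changes of 0.25, 0.5, 1 and 2 it recovered 18%, 60%, 82% and 90%. The simulation had independent normal noise, as many rises as falls and no shift of whole libraries. In the real data 25.6% of genes were called, mostly higher, so these rates do not carry over to the calls given here. The 17 alternatives were pseudocounts of 0.001 and 0.1, none with a mean score of at least 0.002, 2 filters, 3 scalings, the replicate block, eBayes without trend, arrayWeights and each library left out. Of the 2 filter settings, the one with no filter repeats the main fit.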

Additional observations from a re-analysis of the deposited data

How the results depend on the processing

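Called members, Abcc10 included, numbered 4 to 12 higher and 0 lower with 1 library left out, and all genes 1613 to 3729 higher and 303 to 486 lower. Centring on the library median gave 6 higher and 2 lower members (Abcc4 and Abcg2) and 1531 and 2883 genes, quantile normalization 6 higher members and 2022 and 1883 genes, and centring on the median deviation 7 higher and 1 lower (Abcg2) and 2235 and 1518 genes. Without the lowest 25% of genes, 1968 of 11773 genes were called higher. Replicate numbers are shared between the groups, but same-numbered libraries did not deviate together (r = -0.07, 0.04 and -0.02 for numbers 1, 2 and 3, and no library correlated over 0.1 with any of the other group). With the replicate block 5 members were called higher, and 1770 genes higher and 328 lower. The calls of Abca6 (limma adjusted p = 0.059), Abca8b (0.0645), Abce1 (0.0721), Abca3 (0.104) and Abcc8 (0.117) ended with that block, a setting that their lists above leave out. Among members whose 6 scores are given above, differences that did not pass changed sign, as did that of Abca3. Centring on the library median turned Abca1 to -0.054, Abca2 to -0.098, Abca3 to -0.042, Abcb1a to -0.089, Abcf1 to -0.068, Abcg1 to -0.083 and Abcg4 to -0.014. Quantile normalization turned Abca2 to -0.074, Abcb1a to -0.087, Abcf1 to -0.061, Abcg1 to -0.025 and Abcg4 to -0.024, and centring on the median deviation turned Abca2 to -0.033, Abcb1a to -0.024, Abcf1 to -0.0027 and Abcg1 to -0.018. With arrayWeights Abcb1a was at -0.28. With 1 library left out, Abcb1a ran from -0.32 to 0.47, Abcg1 from -0.0074 to 0.081 and Abcg2 from -0.015 to 0.011. The cause of these changes was not tested. Scores have 4 decimals, which limits the precision of Abcc4, Abcg2 and Abca1.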
